A study of Rattus norvegicus with 45 samples.

Results

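Expression of 40 genes of glutamate signalling was examined in the medial preoptic area of rat pups whose mothers had received bisphenols in pregnancy. The 40 genes are the listed receptors, transporters and scaffolds that are present in both deposited count tables, out of 40643 gene identifiers. They comprise 4 AMPA receptor subunits (Gria1 to Gria4) with 4 auxiliary subunits (Cacng2, Cacng3, Cacng8 and Cnih2), 5 kainate receptor subunits (Grik1 to Grik5), 6 NMDA receptor subunits (Grin1, Grin2a, Grin2b, Grin2c, Grin2d and Grin3a) and the delta receptor Grid1. The others are 6 metabotropic receptors (Grm2, Grm3, Grm4, Grm5, Grm7 and Grm8), 3 vesicular transporters (Slc17a6, Slc17a7 and Slc17a8), the plasma membrane transporter Slc1a1 and 10 scaffold proteins of the postsynaptic density (Homer2, Homer3, Shank1 to Shank3, Dlg1 to Dlg4 and Dlgap1). The rule uses no measured value, but the list itself was chosen with earlier results of these data known.

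The 45 libraries came from 22 female and 23 male pups of 24 litters, 6 litters per exposure, taken on postnatal day 10, and each library held the tissue of a pup of a different litter within its sex. Dams received bisphenol A at 50 µg/kg (BPA50, 6 females and 5 males), a mixture in equal parts of bisphenols A, S and F at 50 µg/kg (Mix50, 6 females and 6 males), the same mixture at 150 µg/kg (Mix150, 5 females and 6 males) or the oil vehicle (oil, 5 females and 6 males) from gestation day 8 until birth. Dams were assigned to exposures as cage pairs, and which litters shared a cage is not given in the sources used here, nor are the strain and the route. Maternal licking and grooming and nest attendance were scored on postnatal days 1 to 5. RNA was measured by 3′ Tag-seq, which reads the 3′ end of each transcript, so that levels of different genes, whose lengths and tails differ, are not set against each other here.

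Glutamate carries most of the fast excitation in the brain. Vesicular transporters load it into synaptic vesicles, AMPA and kainate receptors open at once when it binds, NMDA receptors open when binding coincides with depolarisation, and metabotropic receptors act through G proteins. Scaffold proteins of the Dlg, Dlgap, Shank and Homer families tie these receptors together beneath the postsynaptic membrane. The preoptic area, a forebrain region that controls parental and sexual behaviour, holds intermingled GABA and glutamate neurons, and its glutamate neurons mostly use the vesicular transporter Slc17a6.

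Promoters are shown for 4 of the genes whose levels followed the striatal markers of the libraries, Grin2d and Slc17a6 in the falling direction and Dlg1 and Grm7 in the rising direction. They are the members of lowest p in each direction in males among the 26 of 40 genes with an entry in RefSeq's promoter table for the assembly GRCr8. Each runs 5′ to 3′ on the gene's strand, from 250 bases before the gene's start to 50 bases after it, and the capitals mark the 50 bases after the start.
Sequences are at chr1:105481187-105481486 on the minus strand for Grin2d, chr1:110348197-110348496 on the plus strand for Slc17a6, chr11:82607748-82608047 on the minus strand for Dlg1 and chr4:145286476-145286775 on the plus strand for Grm7.
Grin2d: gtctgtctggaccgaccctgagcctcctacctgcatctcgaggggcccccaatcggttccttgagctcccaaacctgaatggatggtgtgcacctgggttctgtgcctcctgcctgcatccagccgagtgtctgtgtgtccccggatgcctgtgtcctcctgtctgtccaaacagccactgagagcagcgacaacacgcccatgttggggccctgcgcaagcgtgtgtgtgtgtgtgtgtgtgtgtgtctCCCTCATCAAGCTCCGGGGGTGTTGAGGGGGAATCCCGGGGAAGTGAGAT
Slc17a6: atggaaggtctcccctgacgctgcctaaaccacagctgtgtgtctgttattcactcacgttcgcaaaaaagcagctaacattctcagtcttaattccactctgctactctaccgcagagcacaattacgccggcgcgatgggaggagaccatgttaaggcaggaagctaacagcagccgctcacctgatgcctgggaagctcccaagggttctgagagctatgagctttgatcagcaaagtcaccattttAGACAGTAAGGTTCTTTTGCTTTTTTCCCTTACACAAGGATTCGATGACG
Dlg1: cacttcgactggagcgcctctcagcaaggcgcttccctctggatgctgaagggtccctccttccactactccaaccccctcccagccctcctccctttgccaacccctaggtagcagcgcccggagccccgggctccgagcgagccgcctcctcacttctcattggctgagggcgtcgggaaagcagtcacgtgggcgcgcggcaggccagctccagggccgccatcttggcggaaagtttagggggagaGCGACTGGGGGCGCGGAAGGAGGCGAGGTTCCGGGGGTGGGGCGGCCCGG
Grm7: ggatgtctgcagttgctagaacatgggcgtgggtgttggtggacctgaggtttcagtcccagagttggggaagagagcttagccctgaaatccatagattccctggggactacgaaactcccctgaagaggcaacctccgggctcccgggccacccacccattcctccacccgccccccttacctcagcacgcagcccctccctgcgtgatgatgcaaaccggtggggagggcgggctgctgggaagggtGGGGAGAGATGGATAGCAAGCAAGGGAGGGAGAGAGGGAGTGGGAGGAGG
The G and C share of these windows was 60.7% for Grin2d, 49.0% for Slc17a6, 69.0% for Dlg1 and 62.0% for Grm7. Its median was 58.7% over the 26 genes, against 51.7% over all 33469 windows of the table. The GC box GGGCGG, searched on both strands, occurred in neither Grin2d nor Slc17a6, once in Dlg1 and at 2 places in Grm7. It was present in 8 of the 26 windows (30.8%), against 33.1% of all windows. The estrogen-related receptor element TCAAGGTCA was in 0 of the 26 windows, against 0.433% of all windows, and its core AAGGTCA, which lies within it, in 0 of the 26, against 4.61%. The estrogen response element, GGTCA and TGACC with 3 bases of any kind between them, was also in 0 of 26, against 0.0269% of all windows. These matches describe letters in a short window and say nothing of binding.

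Total counts per library were 4397460 to 7223180 in females and 4747461 to 6740045 in males, of which the 40 genes took 42231 to 71586 counts (0.930% to 1.19%) in females and 42825 to 71007 counts (0.887% to 1.21%) in males. Levels are given in CPM, the counts of a gene scaled to a common library total with TMM factors. All 40 genes passed the filter on low counts, and tests were adjusted over the 18354 genes tested in females and the 18426 tested in males. The labels call the tissue the medial preoptic area, and 12 of 16 preoptic hypothalamus markers averaged above 1 CPM, among them the estrogen receptor Esr1 at 13.4 CPM and the calcitonin receptor Calcr at 23.1 CPM, while Hmx3 had no count in any library and Hmx2 had 11 counts in all. All 12 markers of the striatum, a neighbouring region, were also above 1 CPM (Pde10a at 490.4 CPM), as were 8 of 10 markers of the pallium. Pallial markers stood apart in replicate 3 of the Mix50 females, with the highest level of all 45 libraries for Neurod6 (14.95 CPM, against a median of 0.875 CPM in the others), Neurod2 (20.6 against 0.861 CPM) and Tbr1 (37.1 against 6.44 CPM). In bulk tissue, fewer cells of a type and less RNA per cell cannot be told apart.

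The range over pups differed widely among the 40 genes. Slc1a1, the neuronal glutamate and cysteine transporter, was the steadiest, at 72.0 to 92.4 CPM over the 45 libraries, a 1.28-fold range. Grm5, the Gq-coupled metabotropic receptor, ranged from 885.4 to 1477 CPM and Dlg2, a postsynaptic scaffold, from 1115 to 2010 CPM. The obligatory NMDA subunit Grin1 ranged from 135.1 to 203.0 CPM. The widest ranges were those of genes with few counts: Grin2c spanned 6.23-fold, Grm2 5.18-fold, Slc17a8 5.06-fold, Grin2d 4.28-fold and Slc17a6 4.19-fold, and Slc17a7 ran from 0 to 36.9 CPM. Not every gene with few counts ranged widely. Homer3 spanned 1.80-fold with a lowest count of 42, beside a lowest count of 48 for Grin2d. The median biological coefficient of variation of the 40 genes was 0.107 in females and 0.124 in males. Both were above the medians over all genes tested, 0.0999 and 0.102.

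**Figure D1:**
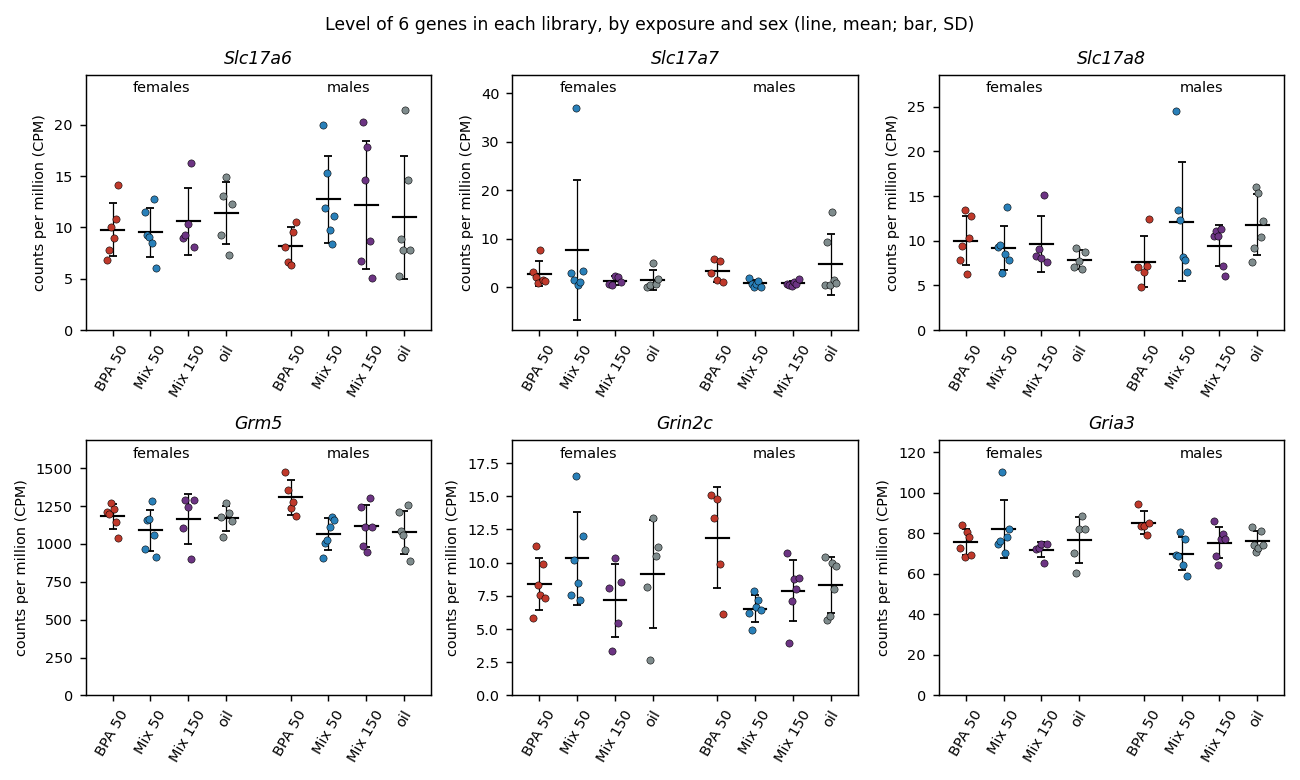
Level in CPM (vertical axes) of 6 glutamate genes in every library, with females left and males right and BPA50, Mix50, Mix150 and oil from left to right within each sex; points are libraries, lines means and bars SD. Slc17a7 reached 36.9 CPM in a single Mix50 female library, and the Grm5 points of Mix50 males, at most 1179 CPM, lie below those of BPA50 males, at least 1187 CPM.

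The first question of the design was whether prenatal bisphenols changed these genes relative to oil and relative to each other. None of the 40 genes passed the threshold in any of the 12 comparisons, 6 in each sex (edgeR's quasi-likelihood test, Benjamini-Hochberg adjusted p under 0.05 over all genes), where 0% of all genes tested was called in each of the 12. DESeq2 and limma voom also called 0 of the 40. For 34 of the 40 genes in the comparison of BPA50 with oil females, and for 30 of the 40 in males, both ends of the 95% interval were closer to no change than 1.5-fold. The genes with few counts had wide intervals.

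Between BPA50 and oil females, 0 of the 40 genes were at an unadjusted p under 0.05, against 3.63% of all genes, and the median log2 difference was -0.02. Between Mix150 and oil the count was also 0, against 3.08% of all genes, with a median of -0.02. It was 0 as well for Mix50 against BPA50 (4.21% of all genes) and for Mix150 against BPA50 (2.27%). Between Mix50 and oil, 6 of the 40 genes were at an unadjusted p under 0.05, 2 higher and 4 lower, against 4.85% of all genes (2.18% higher and 2.68% lower). Grm2, a presynaptic Gi-coupled receptor, was at 3.201, 7.02 and 9.68 CPM (lowest, median and highest) in Mix50 females and at 5.56, 3.0, 3.198, 3.15 and 4.73 CPM in oil females. The 2 groups overlapped. Its log2 difference was 0.75 ± 0.27 (SE; edgeR's quasi-likelihood test, unadjusted p = 0.0087, Benjamini-Hochberg adjusted p = 0.971). Grid1, the delta receptor that binds cerebellins, was at 436.7, 454.9 and 561.8 CPM (lowest, median and highest) in Mix50 females, against 511.9 to 559.0 CPM in oil females, a log2 difference of -0.17 ± 0.07 whose edgeR adjusted p was 0.988. The groups overlapped here as well. With the striatal marker score added to the model, 12 of the 40 genes were at an unadjusted p under 0.05 between Mix50 and oil females. This compares with 6.57% of all genes in the 2 directions together, and 0 were called (lowest edgeR adjusted p = 0.559). Of the 12, 1 was higher and 11 were lower, and the share of all genes in each direction was not computed for this model.

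In males the larger differences lay between BPA50 and the other groups. Between BPA50 and oil, 11 of the 40 genes were at an unadjusted p under 0.05 and all 11 were higher, against 5.91% of all genes that were higher at that p, yet none was called (lowest edgeR adjusted p = 0.361). The 11 were 3 NMDA subunits (Grin2a, Grin2b and Grin2c), 2 AMPA subunits (Gria1 and Gria3), 2 kainate subunits (Grik2 and Grik5), 2 metabotropic receptors (Grm3 and Grm5) and 2 scaffolds (Dlg1 and Dlg2). Over the 40 genes, 27 were higher, against 50% of all genes, and 13 lower, with a median log2 difference of 0.09, against 0.00 over all genes.

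Grm5 was at 1477, 1358, 1237, 1277 and 1187 CPM in BPA50 males and at 885.4, 1071 and 1258 CPM (lowest, median and highest) in oil males. The lowest BPA50 male lay below the highest oil male. The log2 difference was 0.28 ± 0.09 (SE; edgeR's quasi-likelihood test, unadjusted p = 0.0050, Benjamini-Hochberg adjusted p = 0.361). Grik2, a pore subunit of kainate receptors, was at 800.0, 716.3, 691.8, 718.6 and 760.0 CPM in BPA50 males, against 554.9, 662.4 and 731.4 CPM (lowest, median and highest) in oil males. Its groups overlapped, with a log2 difference of 0.19 ± 0.07 (edgeR adjusted p = 0.375). Among lower values, Slc17a8, a vesicular transporter found in scattered neurons that often release another transmitter too, was at 7.12, 4.85, 6.52, 7.202 and 12.5 CPM in BPA50 males and at 7.64, 11.3 and 16.03 CPM (lowest, median and highest) in oil males. The log2 difference of -0.62 ± 0.31 had an edgeR adjusted p of 0.456, and the groups overlapped.

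Markers of the striatum moved with this comparison. All 12 striatal markers were higher in BPA50 than in oil males, with a median log2 difference of 0.57 and 2 at an unadjusted p under 0.05 (lowest edgeR adjusted p = 0.380), and their summed level was 1468 to 2822 CPM in BPA50 males and 1025 to 2343 CPM in oil males. Of 12 preoptic markers tested, 2 were higher and 10 lower, with a median of -0.23, and their sum was 98.7 to 136.8 CPM in BPA50 males and 109.0 to 186.1 CPM in oil males. Of 7 markers of cholinergic neurons and septum, 6 were lower in BPA50 males (median -0.62). Of 6 thalamic markers, 4 were higher (median 0.23, 3 at an unadjusted p under 0.05), and of 9 pan-neuronal markers, 6 were lower (median -0.27, 3 at an unadjusted p under 0.05). No marker of these lists was called by edgeR. With the striatal score in the model, 6 of the 40 genes were at an unadjusted p under 0.05, 4 higher and 2 lower, against 6.43% of all genes, and the median log2 difference of the 40 genes was 0.05. The Grm5 difference was then 0.16 (edgeR adjusted p = 0.765) and that of Slc17a8 -0.20.

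Between the mixture and BPA at the same 50 µg/kg, 19 of the 40 genes were at an unadjusted p under 0.05 in males, 17 of them lower after the mixture, against 6.17% of all genes that were lower at that p. None was called (lowest edgeR adjusted p = 0.331). The 17 comprised 4 NMDA subunits (Grin1, Grin2a, Grin2b and Grin2c), 4 scaffolds (Shank2, Dlg1, Dlg2 and Dlg3), 3 metabotropic receptors (Grm3, Grm5 and Grm7), Gria1 and Gria3, Grik2 and Grik5, Cacng8 and Slc17a7. In males Slc17a7 passed the filter on low counts only through BPA50 and oil libraries, so it is listed here as a value only. The 40 genes had a median log2 difference of -0.13, 11 higher and 29 lower, against 49.6% of all genes that were lower.

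Grin2c, an NMDA subunit of slow channels with weak magnesium block, was at 4.92, 6.55 and 7.84 CPM (lowest, median and highest) in Mix50 males and at 15.1, 13.3, 14.8, 9.93 and 6.14 CPM in BPA50 males. A single BPA50 male lay within the range of the Mix50 males. The log2 difference was -0.87 ± 0.22 (SE; edgeR's quasi-likelihood test, unadjusted p = 6.6e-04, Benjamini-Hochberg adjusted p = 0.331). Gria3 was at 59.1, 69.0 and 80.9 CPM (lowest, median and highest) in Mix50 males, against 94.5, 83.5, 83.8, 79.0 and 85.1 CPM in BPA50 males, a log2 difference of -0.29 ± 0.08 with an edgeR adjusted p of 0.331. Its ranges overlapped at their ends. Grm5 was the only one of the 40 genes whose 2 groups did not overlap, at 908.8 to 1179 CPM in Mix50 males and 1187 to 1477 CPM in BPA50 males, against 0.933% of all genes without overlap in this comparison. In the other 11 comparisons 0 of the 40 genes were without overlap, against 0.103% to 1.18% of all genes.

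Cacng2, the auxiliary subunit that carries AMPA receptors to synapses, was among the 2 genes that were higher, at 72.5, 102.6 and 137.8 CPM (lowest, median and highest) in Mix50 males and at 79.1, 77.5, 65.0, 94.4 and 93.8 CPM in BPA50 males. The groups overlapped widely, and the log2 difference of 0.38 ± 0.16 had an edgeR adjusted p of 0.382. The other was Slc17a8, with a log2 difference of 0.66 ± 0.31 (edgeR adjusted p = 0.402). All 12 striatal markers were lower in Mix50 than in BPA50 males, with a median log2 difference of -0.69, 5 at an unadjusted p under 0.05 and a summed level of 836.4 to 2134 CPM in Mix50 males, against 1468 to 2822 CPM in BPA50 males. All 7 markers of cholinergic neurons and septum were higher in Mix50 males (median 0.78), as were all 11 of the oligodendrocyte lineage (median 0.13) and 6 of 9 pan-neuronal markers (median 0.29), while all 8 ependymal markers were lower (median -0.46). With the striatal score in the model, 4 of the 40 genes were at an unadjusted p under 0.05, against 5.19% of all genes in the 2 directions together. All 4 were lower, and the median over the 40 genes was -0.06. Grin2c then differed by -0.56, Gria3 by -0.23 and Cacng2 by 0.04. Mix150 males differed from BPA50 males in 6 of the 40 genes at an unadjusted p under 0.05, against 4.3% of all genes, with Grin2c at a log2 difference of -0.61 and Grm5 at -0.23 (edgeR adjusted p = 0.967 for both). The 6 included Slc17a7, for which the same limit holds. All 12 striatal markers were lower in Mix150 than in BPA50 males (median -0.35), as were all 8 ependymal markers (median -0.64). With the striatal score in the model, 4 of the 40 genes were at an unadjusted p under 0.05 in this comparison. The share was 4.14% of all genes in the 2 directions together. All 4 were lower, and the median over the 40 genes was -0.04. The 3 male comparisons of BPA50, with oil, Mix50 and Mix150, all rest on the same 5 BPA50 males, so they are not independent of each other.

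Against oil in males, the median log2 difference of the 40 genes was -0.01 for Mix50, with 1 gene at an unadjusted p under 0.05, and 0.03 for Mix150, with 2, against 3.47% and 4.09% of all genes. Slc17a7, which passed the filter in males only through BPA50 and oil libraries, was that 1 gene and was among the 2. Between the 2 doses of the mixture, 5 of the 40 genes were at that p in females, against 4.72% of all genes, and 0 in males, against 2.82%.

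**Figure D2:**
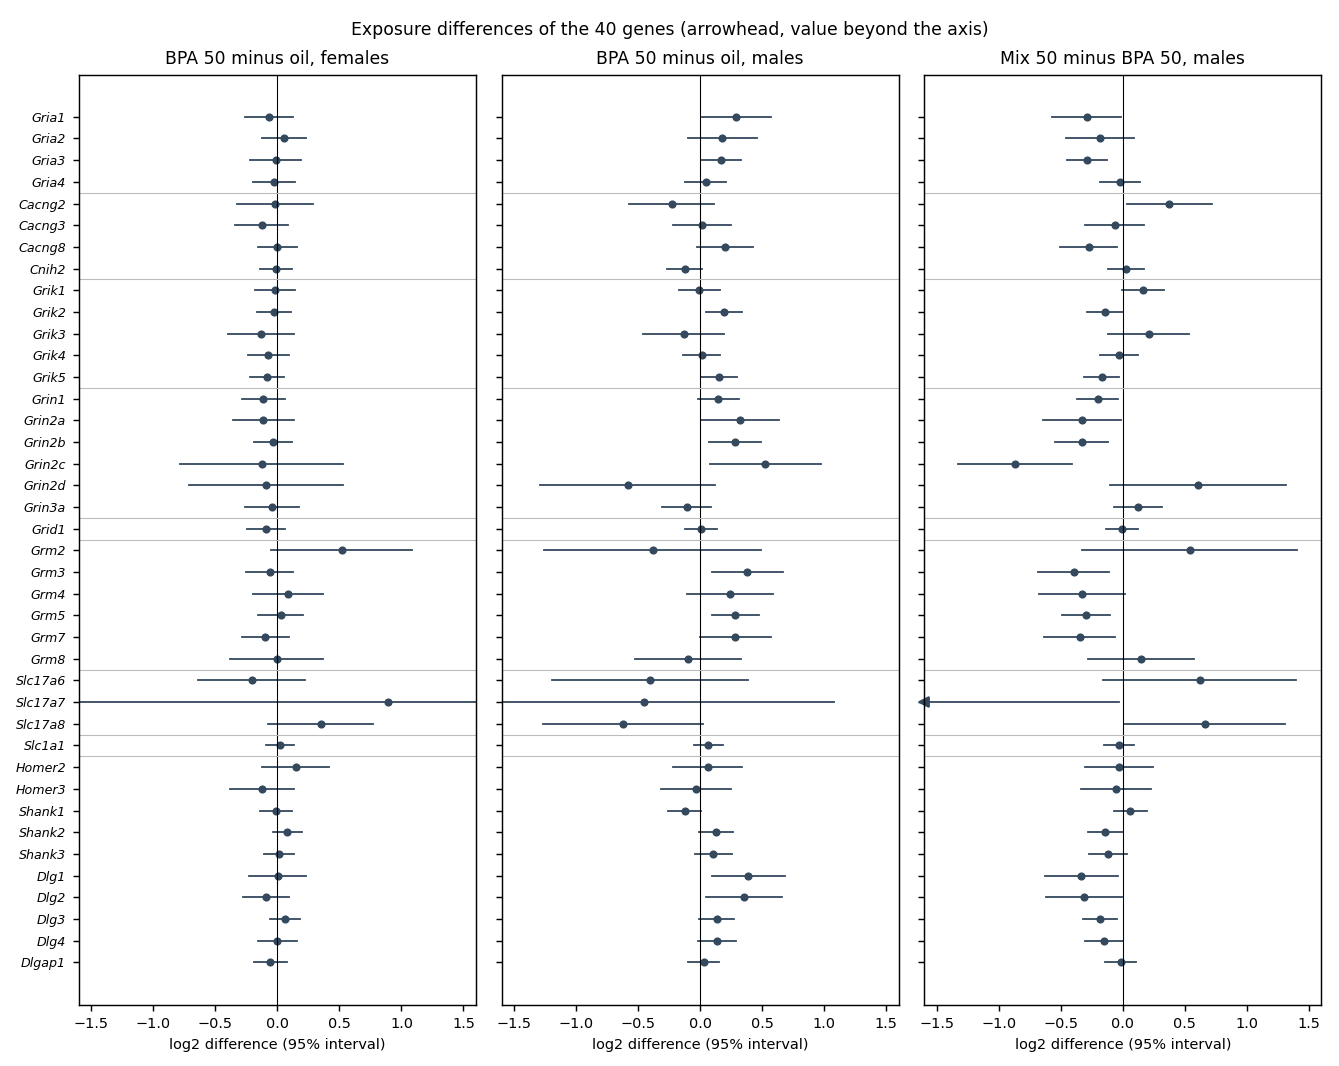
Log2 difference (horizontal axis) of each of the 40 genes between BPA50 and oil females, BPA50 and oil males, and Mix50 and BPA50 males, with its 95% confidence interval from edgeR. Points lie mostly right of 0 for BPA50 against oil in males (27 of 40) and left of 0 for Mix50 against BPA50 in males (29 of 40), and no gene passed the adjusted threshold.

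Slc17a7, the vesicular transporter of cortical and hippocampal neurons, had the largest differences and was set by a few libraries. In females it was at 2.93, 1.52, 36.9, 0.425, 0.982 and 3.40 CPM after Mix50 and at 0, 0.353, 5.08, 0.6996 and 1.70 CPM after oil. The log2 difference was 2.33 ± 1.06 (SE; edgeR's quasi-likelihood test, Benjamini-Hochberg adjusted p = 0.992). Without replicate 3 of the Mix50 females, the library that stood apart by its pallial markers, it was 0.25. Of 6 pallial markers tested, 5 were higher in Mix50 than in oil females (median log2 difference 0.83), and the summed level of the list was 82.7 to 174.8 CPM in Mix50 females and 84.9 to 108.0 CPM in oil females. In males Slc17a7 was at 0, 0.728 and 1.80 CPM (lowest, median and highest) after Mix50, at 0.198 to 1.77 CPM after Mix150, and at 0.498, 9.38, 0.364, 15.6, 1.53 and 0.955 CPM after oil. The log2 differences from oil were -2.52 ± 0.90 for Mix50 and -2.50 ± 0.89 for Mix150, with edgeR adjusted p of 1.00 and 0.992. Replicates 2 and 4 of the oil males, with 51 and 75 counts, were the 2 high ones, and without either of them the gene no longer passed the filter in males. Besides them, only replicates 1, 2 and 4 of the BPA50 males reached 10 counts, with 17, 33 and 28. No mixture male had more than 9 counts. The gene was thus tested in males only through groups where it was high, and its differences from the mixtures are given as values only. Pallial markers summed to 73.1 to 104.6 CPM in Mix50 males, 88.8 to 116.8 CPM in Mix150 males and 77.5 to 139.6 CPM in oil males, and their part in these differences was not tested. Cux2 made up much of these sums in both sexes, with a mean of 69.8 CPM over all libraries. Neurod6 and Neurod2 averaged 1.73 and 1.75 CPM, so the sums hardly reflect them.

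The members' levels were then set against markers of the regions and cells that the tissue could hold, as a slope of log2 level per SD of the mean log2 CPM of a marker list, with exposure in the model. With the striatal score (SD 0.396 log2 units in females and 0.567 in males), 25 of the 40 genes were called in females, 15 rising and 10 falling, against 17.4% of all genes (8.47% rising and 8.95% falling). In males 29 were called, 19 rising and 10 falling, against 28.4% (13.8% rising and 14.6% falling). A set of 15 rose in both sexes and 9 fell in both, and none changed sign between the sexes. The scores come from the same libraries as the levels, so the slopes describe how genes vary together and not an effect of an exposure.

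Falling in both sexes were Gria4, Cacng2, Grik3, Grin2d, Grin3a, Grm8, Slc17a6, Slc17a8 and Shank1. Grin2d, an NMDA subunit of early development and of interneurons, had the steepest called slope among them in females, -0.41 ± 0.05 per SD in females and -0.54 ± 0.05 in males (SE; edgeR's quasi-likelihood test, Benjamini-Hochberg adjusted p = 1.02e-07 and 3.9e-10). It was at 40.3 CPM in replicate 1 of the Mix50 males, whose striatal score of 5.13 was the lowest of the 45, and at 11.5 CPM in replicate 3 of the BPA50 males, whose score of 6.98 was the highest. Slc17a6, the transporter of hypothalamic glutamate neurons, was at 19.9 CPM in the first and 6.33 CPM in the second, with slopes of -0.25 ± 0.05 in females and -0.57 ± 0.06 in males. Grm8, a presynaptic autoreceptor, fell by 0.25 and 0.31 on the log2 scale per SD, and Grin3a, an NMDA subunit that lowers calcium flow, by 0.15 and 0.13.

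Rising in both sexes were Gria1, Gria2 and Cacng8 of the AMPA complex, Grin1, Grin2a, Grin2b and Grin2c of the NMDA receptor, Grik5, the metabotropic receptors Grm3, Grm4, Grm5 and Grm7, and the scaffolds Dlg1, Dlg2 and Dlg4. Gria2, the AMPA subunit that limits calcium entry, was at 489.9 CPM in the library of lowest striatal score and at 737.6 CPM in that of highest score, and its slope was 0.12 ± 0.02 in females and 0.23 ± 0.02 in males (edgeR adjusted p = 2.2e-04 and 1.3e-10). Grm4, a presynaptic Gi-coupled receptor, had slopes of 0.18 in females and 0.29 in males. Dlg1, a scaffold of the PDZ family, had slopes of 0.17 and 0.23, and Grin2b, the main NMDA partner subunit of the young brain, 0.11 and 0.18. Receptors of the same class thus went both ways: of the 6 NMDA subunits, 4 rose and 2 fell in each sex, and of the 3 vesicular transporters, 2 fell and Slc17a7 was not called.

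Of the 11 genes that were higher in BPA50 than in oil males at an unadjusted p under 0.05, 9 had a called rising slope on the striatal score in males, and the other 2, Grik2 and Gria3, had none. Of all 1089 genes higher at that p, 47.4% had a called rising slope. Of the 17 that were lower in Mix50 than in BPA50 males, 14 had a called rising slope, beside 55.8% of all 1137 genes lower at that p. Both of the members that were higher, Cacng2 and Slc17a8, had a called falling slope, as had 52.5% of all 1139 genes higher at that p. The part of the striatal markers in these group differences was not tested beyond the model that holds their score.

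**Figure D3:**
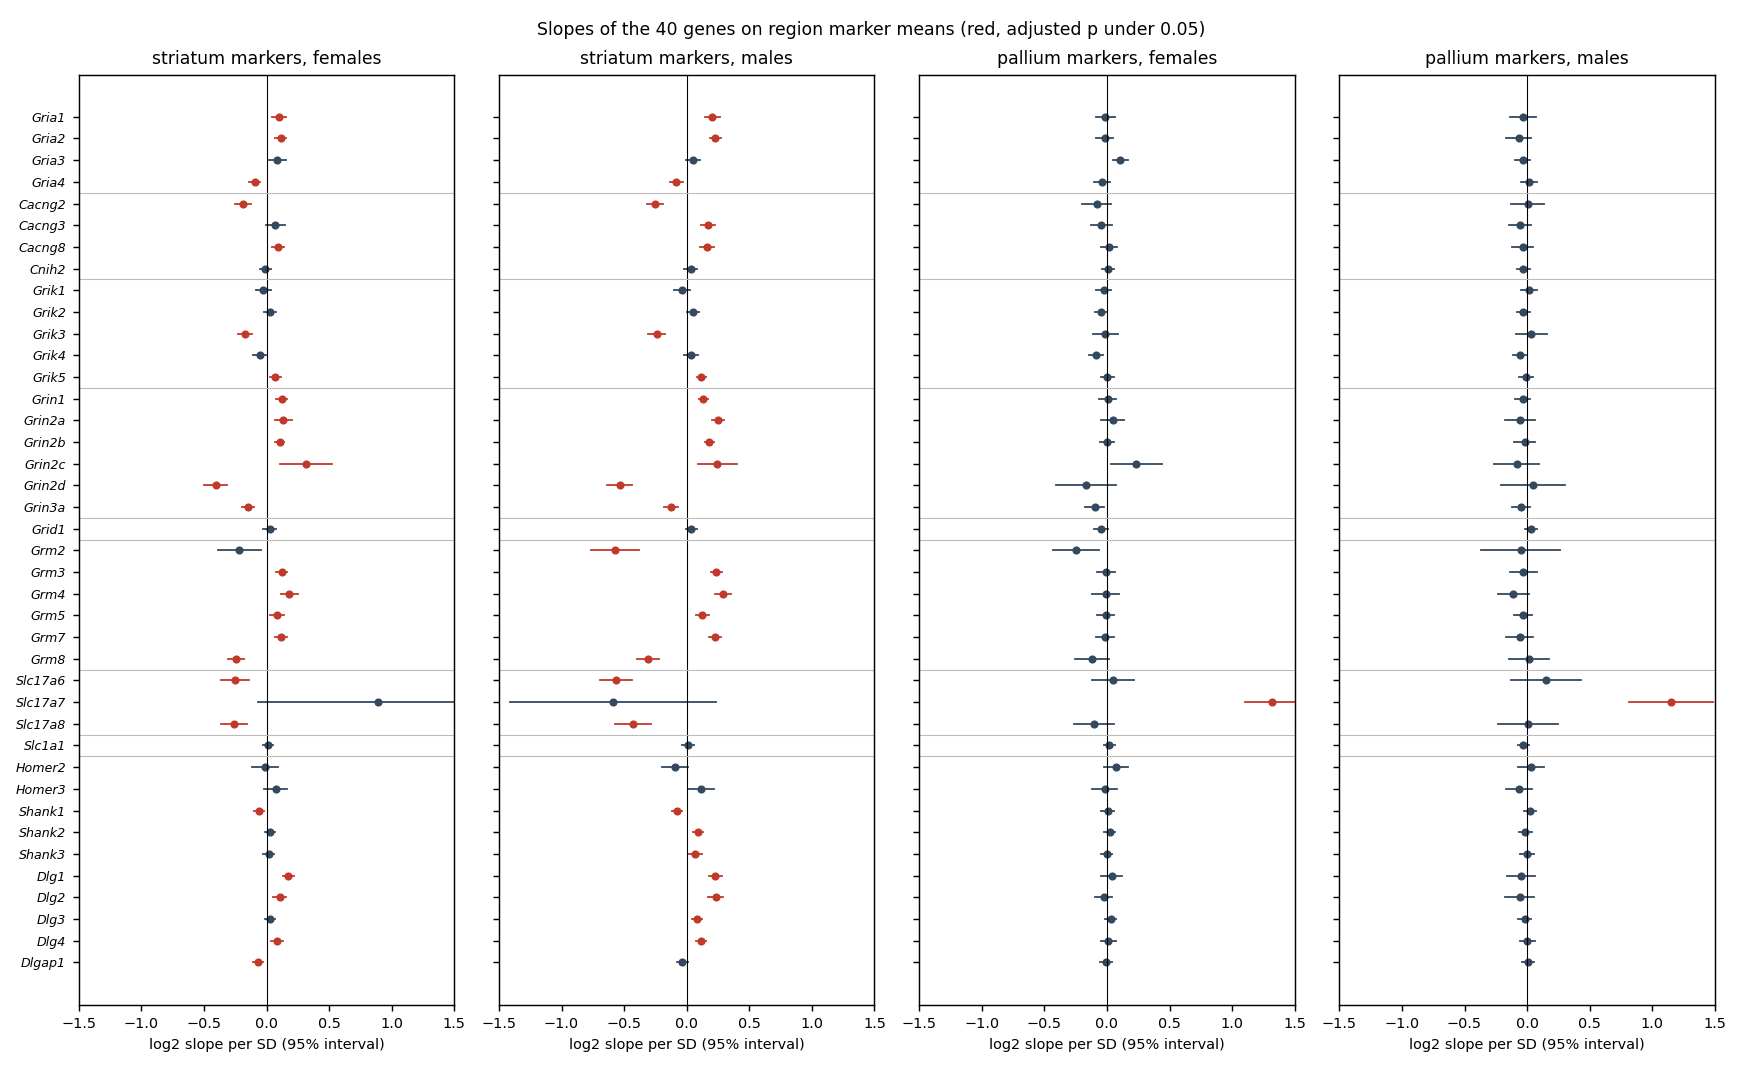
Slope of log2 level per SD of the marker score (horizontal axis, with 95% confidence interval) for each of the 40 genes on the striatal score and on the pallial score, in females and males; red marks an edgeR adjusted p under 0.05. On the striatal score 25 genes are red in females and 29 in males, on both sides of 0, while on the pallial score Slc17a7 alone is red in each sex. Its male slope is a value only, as it passed the low-count filter there only through BPA50 and oil libraries.

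Against the score of preoptic hypothalamus markers, 19 of the 40 genes were called in females, 12 rising and 7 falling, against 11.8% of all genes (6.7% rising and 5.15% falling). In males 27 were called, 10 rising and 17 falling, against 27.6% (14.2% rising and 13.4% falling). The 10 that rose in both sexes were Gria4, Cacng2, Grik3, Grin2d, Grin3a, Grm2, Grm8, Slc17a6, Slc17a8 and Shank1, and the 5 that fell in both were Gria2, Grin2b, Grm3, Grm4 and Dlg1. Slc17a6 had slopes of 0.23 in females and 0.60 in males, and Grin2d of 0.44 and 0.54. The preoptic score was 3.30 in the library of lowest striatal score and 2.38 in that of highest, so the 2 scores stood at opposite ends in these libraries. In females the preoptic count was 12 without replicate 4 of the Mix150 females, whose striatal score of 5.30 was the lowest among females, and also 12 without replicate 5 of the Mix50 females. Against oligodendrocyte lineage markers 0 of the 40 were called in females, against 0.0218% of all genes, by edgeR (3 at an unadjusted p under 0.05, against 7.78%). In males 26 were called, 8 rising and 18 falling, against 20.2% (10.8% rising and 9.43% falling). All 8 had a called falling slope on the striatal score in males, and all 18 a called rising one. The 10 preoptic risers in males were likewise the striatal fallers, and all 17 preoptic fallers were striatal risers. The male slopes on these scores are thus not separate associations, and a difference of slopes between the sexes was not tested.

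Against the pallial score a single gene of the 40 was called in each sex, Slc17a7, against 0.136% of all genes in females and 0.0434% in males. Its slope was 1.32 ± 0.11 in females (SE; edgeR's quasi-likelihood test, Benjamini-Hochberg adjusted p = 1.65e-08) and 1.15 ± 0.16 in males. The male slope is a value only, because in males the gene passed the filter on low counts only through BPA50 and oil libraries. Without replicate 2 or replicate 4 of the oil males, Slc17a7 left the filter in males and was not tested. Gria3, at 110.2 CPM in replicate 3 of the Mix50 females and 70.6 to 82.4 CPM in the other Mix50 females, had a slope of 0.11 in females (edgeR adjusted p = 0.227).

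**Figure D4:**
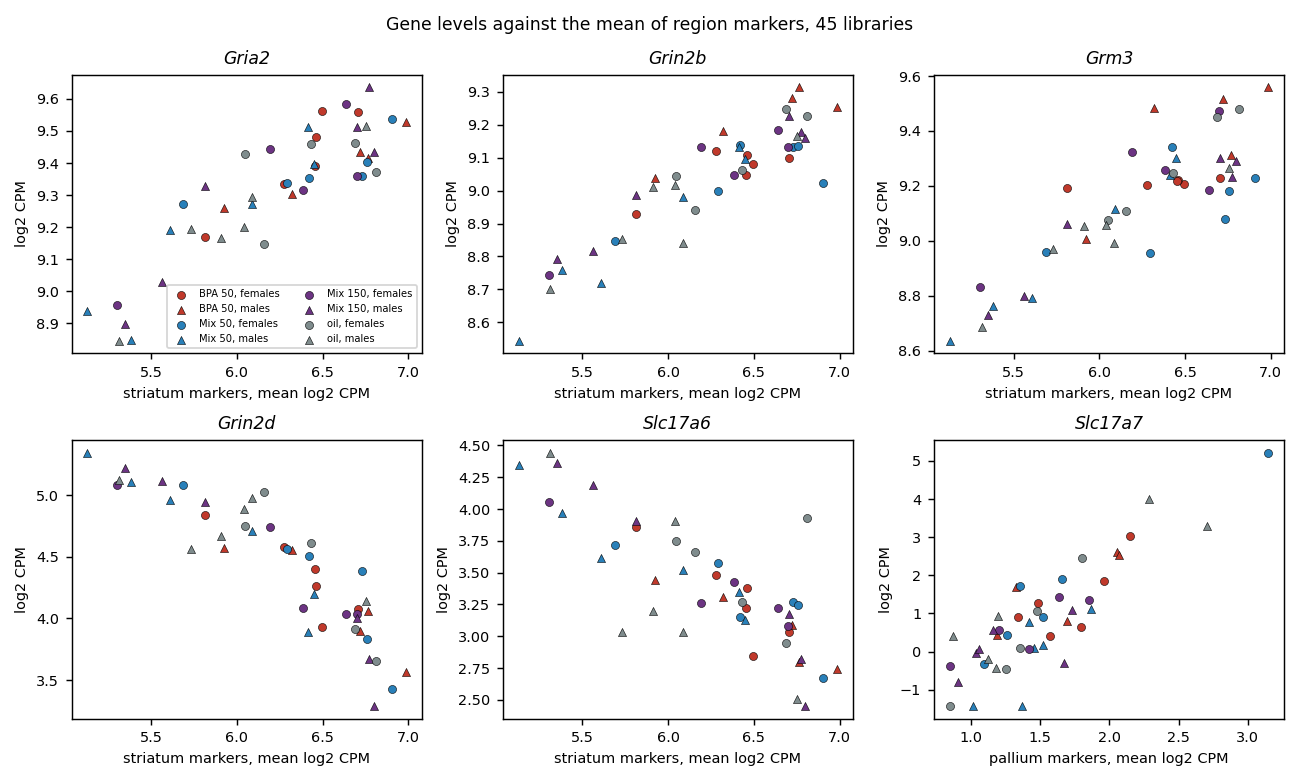
Log2 CPM (vertical axes) of Gria2, Grin2b, Grm3, Grin2d and Slc17a6 against the mean log2 CPM of 12 striatal markers, and of Slc17a7 against that of the pallial markers, in 45 libraries (circles females, triangles males). Gria2, Grin2b and Grm3 are higher and Grin2d and Slc17a6 lower towards the right, and Slc17a7 is higher where pallial markers are.

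The study also asked whether maternal care in the first days, on its own or together with exposure, went with expression. With licking and grooming in a model that held exposure, 0 of the 40 genes were called in females or males by edgeR, where 0% of all genes was called. At an unadjusted p under 0.05 there was 1 gene in females, against 2.76% of all genes, and 5 in males, against 4.45%. In males Grin3a had a slope of 0.08 ± 0.03 per SD of the score (SE; edgeR's quasi-likelihood test, unadjusted p = 0.017, Benjamini-Hochberg adjusted p = 1.00), and Dlgap1, which links Dlg proteins to Shank, of 0.05 ± 0.02 (adjusted p = 1.00). In females Shank2 had a slope of 0.04 (unadjusted p = 0.047). For nest attendance 0 of the 40 genes were at an unadjusted p under 0.05 in females, against 3.17% of all genes, and 0 in males, against 2.29%. The 95% interval of the slope lay within 1.5-fold per SD for 39 of the 40 genes in each of these 4 fits.

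Whether the slope on care differed between exposures was tested with an interaction term, and 0 of the 40 genes were called for either score in either sex, where 0% of all genes was called. For licking and grooming in females, 4 genes were at an unadjusted p under 0.05, against 6.31% of all genes. For Grin2a, the NMDA subunit that rises after birth, the slope differed from that of oil females by -0.10 in BPA50, 0.08 in Mix50 and -0.28 in Mix150 females (unadjusted p = 0.0101, edgeR adjusted p = 0.714). For Dlg4, the abundant scaffold of mature synapses, these differences were 0.01, 0.06 and -0.17 (unadjusted p = 0.027), and for Grin1 -0.06, 0.00 and -0.21 (unadjusted p = 0.045). In males 2 genes were at that p, against 4.76% of all genes, with Cacng3, an AMPA auxiliary subunit of the forebrain, at differences of -0.26, 0.00 and -0.28 (unadjusted p = 0.0091, edgeR adjusted p = 0.926). For nest attendance 3 genes were at that p in females (Grm5, Grin2c and Grm3), against 3.01% of all genes, and 0 in males, against 1.93%.

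**Figure D5:**
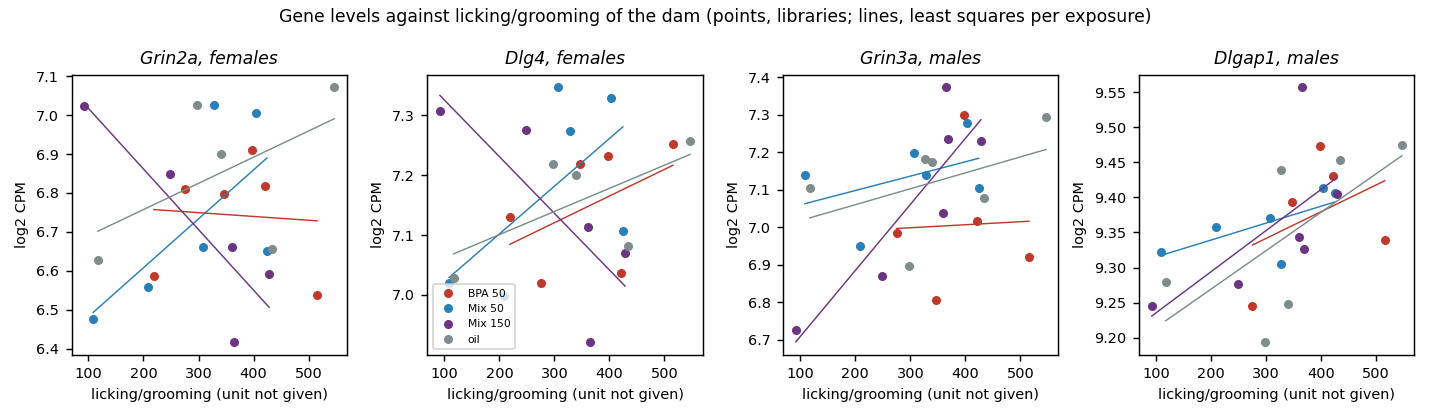
Log2 CPM (vertical axes) of Grin2a and Dlg4 in females and of Grin3a and Dlgap1 in males against the dam's licking and grooming score (horizontal axes, in the unit of the labels), 1 point per library and a least-squares line per exposure. The Mix150 female lines for Grin2a and Dlg4 slope below those of oil females, and no slope or difference of slopes passed the adjusted threshold.

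Between females and males, with exposure in the model, 0 of the 40 genes were called by edgeR, against 0.0999% of all 19026 genes tested, and 1 was at an unadjusted p under 0.05, against 5.46%. That gene was Cnih2, a cornichon that slows AMPA receptor closing, with a log2 difference (female minus male) of 0.11 ± 0.03 (SE; edgeR's quasi-likelihood test, unadjusted p = 0.0022, Benjamini-Hochberg adjusted p = 0.821). It was at 128.4 to 167.8 CPM in females and at 116.8 to 172.8 CPM in males, so the sexes overlapped throughout. Whether the effect of an exposure differed between the sexes was tested with an interaction term, and 0 of the 40 genes were called for BPA50, Mix50 or Mix150, where 0% of all genes was called. For BPA50, 11 genes were at an unadjusted p under 0.05, against 7.12% of all genes, 10 of them with a lower effect in females than in males, against 4.34%. The difference of effects was -0.44 for Grm3, 0.98 for Slc17a8 and -0.44 for Dlg2 on the log2 scale (edgeR adjusted p = 0.680 to 0.683). This interaction rests on the same 5 BPA50 males as the male comparisons, so it is not independent of them. No model of exposure by sex held the striatal score. For Mix50, 3 genes were at that p, against 4.79% of all genes, among them Slc17a7 at 4.85 ± 1.42 (edgeR adjusted p = 0.955), the gene that rested on replicate 3 of the Mix50 females and on 2 oil males. For Mix150 the count was 0, against 3.79% of all genes.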

How the data were processed

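The values are whole-number counts per gene, deposited as one table per sex with 45 count columns that all matched a sample. The names of both tables state that outliers were removed, so spreads and overlaps describe the data that were kept. Per the labels' protocols, a MagMAX FFPE kit gave RNA from frozen brain, which was sequenced as 3′ Tag-seq. Per the submitters' processing notes, the tools were cutadapt 1.18, STAR 2.7.3a, SAMtools 1.10 and bedtools 2.27.1 with the genome build mRatBN7.2. No source used here gives the annotation or the strand setting. Promoter sequences come from RefSeq's table for GRCr8, another build, and were matched by symbol only.

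From the counts, edgeR 4.0.16 (R 4.3.3) kept genes by filterByExpr (minimum count 10, minimum total 15), scaled by TMM and fitted robust quasi-likelihood models, with Benjamini-Hochberg adjustment over all genes tested and a threshold of 0.05. The models held all exposure groups of a sex, then each care score or marker score with exposure (per SD), care by exposure, and sex with exposure by sex over 19026 genes. DESeq2 1.42.0, limma 3.58.1 (voom with sample weights), RLE size factors, no filter, only the groups compared, a replicate block, a litter block, the striatal score as covariate and leaving out each library were the alternatives. Tests were run on simulated data as well. Between simulated BPA50 and oil groups, they recovered 10% of 1.2-fold changes in females and 18% in males. Of 1.5-fold changes they recovered 46% in each sex, and of 2-fold changes 72% in females and 74% in males. Real differences of 1.2-fold could thus often go uncalled. Figures were drawn with matplotlib 3.10.9 (Python 3.11.15, pandas 2.3.3, numpy 2.4.6).

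Totals of 4397460 to 7223180 counts per library set the precision, and intervals cover the spread between these pups. No 2 replicates agreed within sampling noise (lowest chi-square per degree of freedom 2.12). Same-numbered libraries of different exposures did not deviate together (median r 0.024 in females and 0.003 in males), so numbers do not pair them; 21 litters gave a pup of each sex, which the labels state, and these pairs had a median r of 0.087. The genes named with values are those past the threshold and, where fewer than 3 passed, the 2 of lowest p in each direction, or the 3 of lowest p for interactions, with the extremes of each role. The members, gene lists and promoters shown were chosen with earlier results of these data known, and the GC box was added after the promoters were seen. Of 48 other glutamate genes listed, 47 were in the tables and 46 were tested.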

Additional observations from a re-analysis of the deposited data

Results flagged for a closer look

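Of 176 sets of values, each a gene in a group of 5 or 6 libraries, over the 22 genes examined, 7 held a library far from the others of its group, where chance gives about 1 in 20, or 8.8. By their names, the tables were deposited after outliers had been removed, so this count covers only what was kept. Slc17a7, the vesicular transporter of cortical neurons, was at 36.9 CPM in replicate 3 of the Mix50 females, with the other Mix50 females at 0.425 to 3.40 CPM, and Gria3 in the same library was at 110.2 CPM, with the others at 70.6 to 82.4 CPM. That library also had the highest Neurod6, Neurod2 and Tbr1 of all 45. Slc17a7 was at 7.74 CPM in replicate 4 of the BPA50 females, with the others at 0.949 to 3.21 CPM; Neurod6 there was the second highest of all libraries, at 5.98 CPM.

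Replicate 4 of the Mix150 females, whose striatal score was the lowest among females, held 3 of the 7 values: Slc17a8 at 15.1 CPM (others 7.67 to 9.03 CPM), Gria3 at 65.6 CPM (others 72.3 to 74.7 CPM) and Grid1 at 445.2 CPM (others 523.1 to 552.0 CPM). Dlg3, a postsynaptic scaffold, was at 125.9 CPM in replicate 5 of the BPA50 males, with the others at 142.6 to 148.6 CPM. The part of the marker levels in these values was not tested. None of the 40 genes passed the threshold in an interaction of exposure with sex or with maternal care (edgeR).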

How the results depend on the processing

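The count of called members stayed at 0 in all 12 exposure comparisons under DESeq2, limma voom, RLE size factors, no filter, the replicate block, only the groups compared, the striatal score as covariate and with any library left out. It stayed at 0 for both care scores and their interactions with exposure under the same alternatives other than only the groups compared, which was not run there. For sex and exposure by sex, DESeq2, limma voom, RLE size factors, no filter and the litter block were run, and the count was 0 under each. For the slopes on striatal markers the count was 20 to 26 in females and 27 to 30 in males when each library was left out; on preoptic markers it was 12 to 21 in females (12 without Mix150 female replicate 4 or without Mix50 female replicate 5) and 26 to 28 in males; on pallial markers 1 to 1 in females and 0 to 1 in males (0 without oil male replicate 2 or 4, where Slc17a7 left the filter); and on oligodendrocyte markers 21 to 26 in males. Replicate numbers do not pair the libraries. With the replicate block the preoptic count in females was 10 and the pallial count in males was 0 (Slc17a7 slope 1.22, a value only). Striatal counts were then 23 in females and 28 in males, and the cause of these changes was not tested. Under limma voom the pallial count in females was 2, Gria3 joining Slc17a7 (slope 0.12, adjusted p = 0.044). The sign turned for Slc17a7 between Mix50 and BPA50 females, -0.64 without Mix50 female replicate 3 (1.44 with it, and -0.64 to 2.12 as each library was left out), and for Grin2d on nest attendance in males, 0.019 without Mix50 male replicate 4 (-0.08 with it, and -0.14 to 0.019 over the libraries left out).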

Other observations

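Of 46 other glutamate genes tested, 0 were called in any exposure comparison by edgeR. On the striatal score 17 were called in females, 11 rising and 6 falling, against 17.4% of all genes, and 24 in males, 15 rising and 9 falling, against 28.4%. Camk2a, the kinase of the postsynaptic density, had slopes of 0.21 in females and 0.27 in males per SD, and Homer1, which links Shank to metabotropic receptors, of 0.13 and 0.23. Nptxr, a pentraxin receptor of the synapse, fell by 0.28 in females and by 0.34 in males on the log2 scale per SD. On the preoptic score 13 were called in females, against 11.8% of all genes, and 23 in males, against 27.6%. On the pallial score 1 was called in females, against 0.136% of all genes: Nptx1, a neuronal pentraxin, with a slope of 0.33.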
